A study of Mus musculus with 18 samples.

Results

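Neurofilament and neuronal genes were followed through 18 RNA-seq libraries of mouse cochlear cells. The set holds 10 genes of the 47729 listed in the expression files. It has 4 neurofilament subunit genes (Nefl, Nefm, Nefh and Ina), 2 neuronal RNA-binding protein genes (Elavl3 and Elavl4), 2 microtubule genes (Tubb3 and Stmn2), the membrane fusion gene Snap25 and the transcriptional regulator gene Lmo3. They were chosen from measured values: neurofilament genes because they were higher in cultures that gained hair cell transcripts, and the other neuronal genes because they separated sorted native cells. The comparisons behind that choice are therefore described here without a test.

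There were 9 groups of 2 replicates. Sorted LCP D10 and sorted LCP D0 are sorted cells of primary cochlear organoids on days 10 and 0 of differentiation, and LCP D0, D2, D4 and D10 are unsorted organoids on days 0, 2, 4 and 10. The Atoh1, Lgr5 and Sox2 groups are cells sorted from the cochlear sensory epithelium at postnatal day 2. Series notes set native hair cells against native supporting cells, and Atoh1 is a transcription factor of hair cells while Lgr5 and Sox2 mark supporting cells. Per the labels' protocols, the dissected epithelium was treated to part hair cells and supporting cells from neurons and mesenchyme before RNA was taken. What LCP stands for, how the cultures were sorted and which alleles and strain were used the sources do not say. A protocol of tamoxifen and a β-catenin allele stands with all samples, but no sample title names it. Each sample is labelled as coming from 2 ears of 1 pup. Nothing else says how the replicates relate, so the p-values measure the spread between these libraries.

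Neurofilaments are the intermediate filaments of axons. Light, medium and heavy chains and alpha-internexin, the product of Ina, co-assemble into them and help to set axon calibre. The Elavl proteins bind and stabilise neuronal mRNAs, class III beta-tubulin (Tubb3) and stathmin 2 (Stmn2) belong to the growing axon, and SNAP-25 is a SNARE protein that drives vesicle fusion at synapses. Hair cells are not neurons and have no axon, but they release glutamate from ribbon synapses onto spiral ganglion neurons. Neurites of these neurons, and the glia around them, run through the sensory epithelium.

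Values are TPM, a level per transcript length scaled to the same total in every library, so levels of different genes can be compared. TPM keeps no read depth, and no counting error can be given. The number of genes at 1 TPM or more was 14381 to 16713 per library. Summed over 12 hair cell marker genes, the level was 5107 to 6784 TPM in sorted LCP D10, 5.64 to 19.5 TPM in sorted LCP D0 and 1634 to 2224 TPM in the Atoh1 sort. The Lgr5 and Sox2 sorts also held 699.8 to 1124 TPM of these markers, so the native sorts are called by their labels here and not by a cell type. In bulk RNA, fewer cells of a type and less RNA per cell cannot be told apart.

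Promoter sequences from RefSeq (GRCm38.p6, 250 bases before to 50 bases after the start) were found for 5 of the 10 genes. Those of 4 genes are printed because they stand for the patterns described below. Ina was higher in day 10 than in day 0 cultures, Elavl4 was at most 1.04 TPM in any culture, Tubb3 was above that level in 2 of the 12 culture libraries, and Lmo3 was present in every native library. Capitals mark matches, on either strand, to the E-box CAGNTG, which Atoh1 and related factors are known to bind, and to the core motifs CAGCACC and GGACAG of the RE1 element, which the neuronal gene repressor REST is known to bind. The windows are chr19:47014431-47014730 on the plus strand (Ina), chr8:123411303-123411602 on the plus strand (Tubb3), chr4:110351862-110352161 on the minus strand (Elavl4, 1 of 4 starts) and chr6:138581919-138582218 on the minus strand (Lmo3).
Ina: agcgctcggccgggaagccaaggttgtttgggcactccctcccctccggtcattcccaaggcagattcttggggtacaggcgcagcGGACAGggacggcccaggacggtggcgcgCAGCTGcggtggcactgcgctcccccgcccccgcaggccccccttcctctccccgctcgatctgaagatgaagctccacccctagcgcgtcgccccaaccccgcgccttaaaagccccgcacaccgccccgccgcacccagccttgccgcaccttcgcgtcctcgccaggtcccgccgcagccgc
Tubb3: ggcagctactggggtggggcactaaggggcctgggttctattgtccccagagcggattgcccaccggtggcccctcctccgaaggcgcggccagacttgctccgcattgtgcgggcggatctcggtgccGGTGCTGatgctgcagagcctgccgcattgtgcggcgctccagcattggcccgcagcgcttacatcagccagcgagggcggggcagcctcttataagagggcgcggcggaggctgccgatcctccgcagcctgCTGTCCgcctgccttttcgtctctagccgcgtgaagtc
Elavl4: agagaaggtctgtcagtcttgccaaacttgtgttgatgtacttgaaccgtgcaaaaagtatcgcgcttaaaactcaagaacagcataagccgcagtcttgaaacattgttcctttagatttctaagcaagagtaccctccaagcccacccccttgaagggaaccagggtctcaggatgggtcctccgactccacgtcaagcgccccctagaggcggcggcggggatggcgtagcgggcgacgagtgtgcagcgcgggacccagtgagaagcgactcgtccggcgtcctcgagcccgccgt
Lmo3: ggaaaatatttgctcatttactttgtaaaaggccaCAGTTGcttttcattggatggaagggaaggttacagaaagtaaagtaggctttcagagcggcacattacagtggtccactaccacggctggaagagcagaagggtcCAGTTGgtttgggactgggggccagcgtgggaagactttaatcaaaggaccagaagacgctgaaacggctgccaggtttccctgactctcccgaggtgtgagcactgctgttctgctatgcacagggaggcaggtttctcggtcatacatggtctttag
No matches overlapped in these windows. The Ina window held 1 E-box and 1 GGACAG, the Tubb3 window 1 CAGCACC and 1 GGACAG, the Lmo3 window 2 E-boxes and the Elavl4 window none of them. The Elavl3 window, at chr9:22051974-22052273 on the minus strand, held 2 E-boxes. Among all 32851 promoter windows of this length, 51.4% held the E-box, 7.14% held CAGCACC and 22.2% held GGACAG. GC content was 71.7% for Ina, 67.3% for Tubb3, 65.3% for Elavl3, 57% for Elavl4 and 50% for Lmo3, against a median of 52.7% over all windows. A match says nothing about whether a factor binds there.

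The light and medium neurofilament genes were nearly silent in day 0 cultures and lay within or above the native range in 3 of the 4 day 10 culture libraries. Nefl, at chr14:68083863-68089095 of mm10 as are all positions here, had 156 and 84.1 TPM in sorted LCP D10 and 0.108 and 0 TPM in sorted LCP D0. In unsorted cultures it had 0.0382 and 0.379 TPM at D0, 0.384 and 2.47 TPM at D2, 3.71 and 59.2 TPM at D4, and 14.7 and 101 TPM at D10. Native cells had 69.8 and 152 TPM in the Atoh1 sort, 28.9 and 81.6 TPM in the Lgr5 sort and 82.6 and 89.5 TPM in the Sox2 sort. Every library of sorted LCP D10 thus lay within the native range or just above it, replicate 1 of LCP D10 lay below it, and every day 0 library lay far below it. In the order of group means (sorted LCP D10, Atoh1, Sox2, LCP D10, Lgr5, LCP D4, LCP D2, LCP D0, sorted LCP D0), all neighbours overlapped except LCP D4 with LCP D2 and LCP D2 with LCP D0.

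Nefm followed the same course. This gene, at chr14:68082590-68124846, had 111 and 87.02 TPM in sorted LCP D10 and 0.199 and 0 TPM in sorted LCP D0. In unsorted cultures it had 0.842 and 1.47 TPM at D0, 0.905 and 7.59 TPM at D2, 8.75 and 71.2 TPM at D4, and 29.03 and 74.1 TPM at D10. The native levels were 85.8 and 94.8 TPM in the Atoh1 sort, 36.6 and 65.7 TPM in the Lgr5 sort and 81.4 and 85.6 TPM in the Sox2 sort. The Atoh1 and Sox2 sorts did not overlap, nor did the Sox2 sort and LCP D10, while sorted LCP D10 overlapped with the Atoh1 sort. Replicate 1 of LCP D10 was again below every native library. From D2 on, replicate 2 was the higher one for both genes in unsorted cultures. The same replicate was the higher one for the sum of the hair cell markers, and the part of this difference in the results was not tested.

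As a description, the log2 differences of sorted LCP D10 minus sorted LCP D0 were 6.78 (SE 1.09) for Nefl and 6.50 (SE 0.84) for Nefm on the log2(TPM + 1) scale. The corresponding differences in unsorted cultures were 5.06 and 4.48 for D10 minus D0, and 3.81 and 3.64 for D4 minus D0. These comparisons entered the choice of the genes. Nefl and Nefm lie on opposite strands of chromosome 14 and share 1108 exon bases, 32.8% of Nefl's and 19.2% of Nefm's. The library kits do not mark strand, so reads in that stretch cannot be told apart. The ratio of Nefl to Nefm was 1.40 and 0.966 in sorted LCP D10 and ranged from 0.791 to 1.61 across native libraries. It was 0.424 and 0.831 in LCP D4 and 0.506 and 1.37 in LCP D10, so replicate 1 was below the native range in both groups and replicate 2 was within it.

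**Figure D1:**
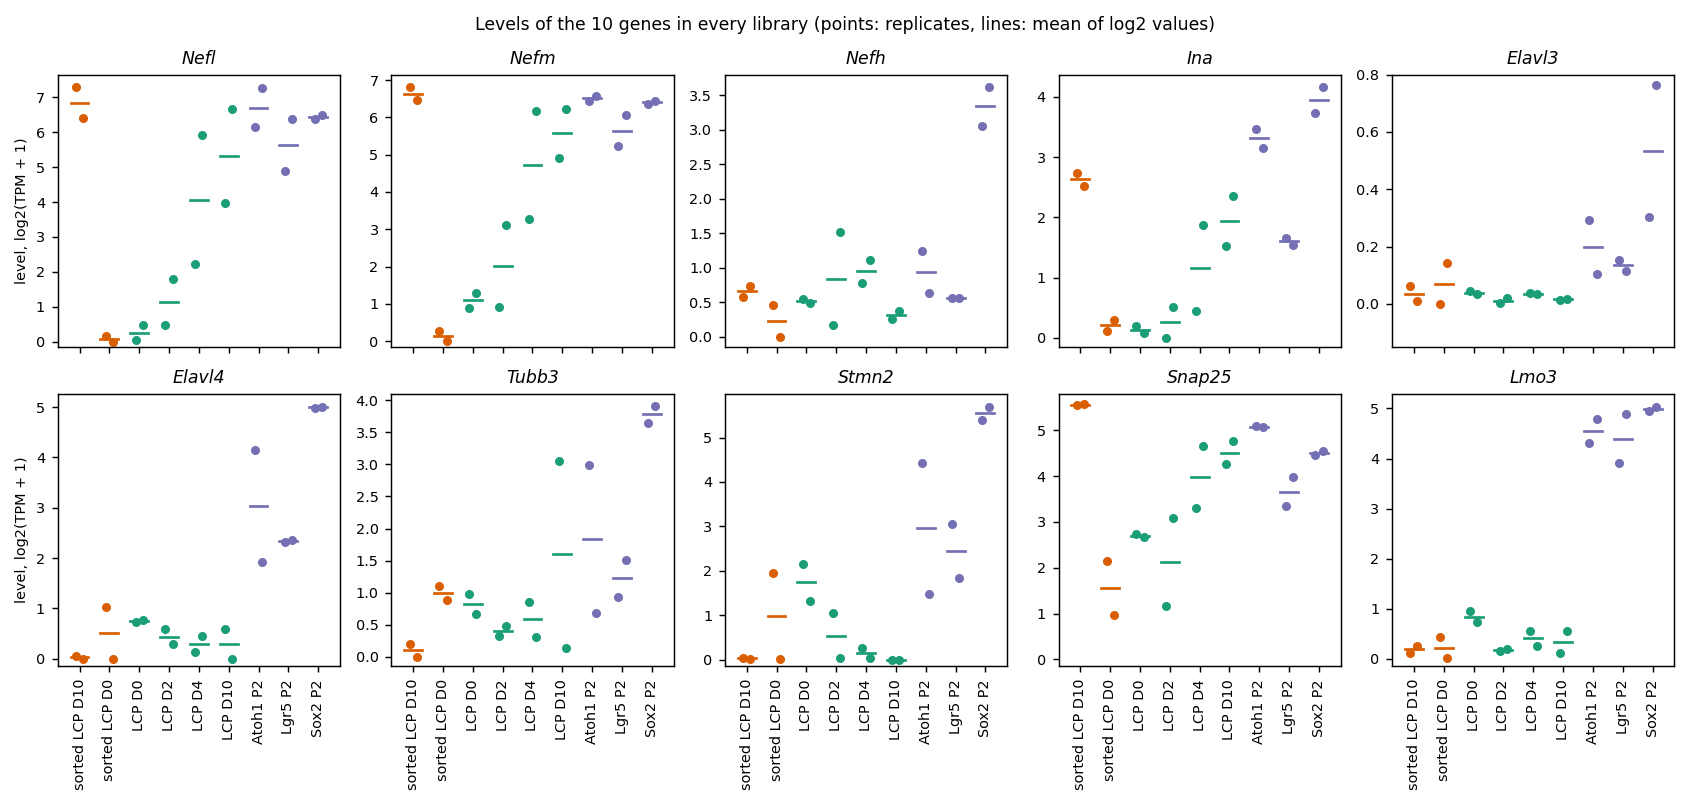
Level of each of the 10 genes as log2(TPM + 1) in the 18 libraries; points are the 2 replicates of a group and lines the mean of their log2 values. Nefl, Nefm, Ina and Snap25 are higher in sorted LCP D10 than in sorted LCP D0 (orange) and higher at D4 and D10 than at D0 in the group means of unsorted cultures (green), whereas Lmo3 and Elavl4 are above 2 TPM only in native sorts (purple).

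Alpha-internexin showed the same direction at lower levels. Ina, at chr19:47014698-47025327, had 5.69 and 4.72 TPM in sorted LCP D10 and 0.0851 and 0.227 TPM in sorted LCP D0. In unsorted cultures it had 0.145 and 0.0536 TPM at D0, 0 and 0.433 TPM at D2, 0.37 and 2.65 TPM at D4, and 1.89 and 4.11 TPM at D10. The Atoh1 sort had 10.03 and 7.92 TPM, the Lgr5 sort 2.17 and 1.93 TPM and the Sox2 sort 12.3 and 16.9 TPM. Here the 3 highest groups (Sox2, Atoh1, sorted LCP D10) did not overlap with each other, and sorted LCP D10 stood between the Atoh1 and Lgr5 sorts. The log2 difference of sorted LCP D10 minus sorted LCP D0 was 2.42 (SE 0.44), again a comparison used to choose the genes. Ina shares 456 exon bases (14.1% of its own) with Nt5c2 on the other strand, a gene with 25.2 to 75.3 TPM in these libraries.

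The heavy chain did not follow the other subunits. Nefh, at chr11:4938754-4948064, had 0.487 and 0.665 TPM in sorted LCP D10, 0.37 and 0 TPM in sorted LCP D0, and between 0.123 and 1.85 TPM in the 8 unsorted culture libraries. It had 1.36 and 0.543 TPM in the Atoh1 sort and 0.474 and 0.476 TPM in the Lgr5 sort, against 7.34 and 11.3 TPM in the Sox2 sort. Both Sox2 libraries were above all 16 others, and no other group reached 2 TPM. Relative to Nefm, the Nefh level was 0.00439 and 0.00764 in sorted LCP D10, 0.0158 and 0.00572 in the Atoh1 sort, 0.013 and 0.00725 in the Lgr5 sort and 0.0902 and 0.132 in the Sox2 sort. Ina relative to Nefm was 0.0513 and 0.0543 in sorted LCP D10, against 0.117 and 0.0835 in the Atoh1 sort. Among the native sorts, Nefh and Ina thus had their highest levels relative to Nefm in both Sox2 libraries.

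Of the RNA-binding protein genes, Elavl4 was found in native cells and hardly in cultures, and Elavl3 was below 1 TPM everywhere. Elavl4 (HuD), at chr4:110203722-110351909, had 16.8 and 2.76 TPM in the Atoh1 sort, 3.96 and 4.16 TPM in the Lgr5 sort and 30.4 and 31.2 TPM in the Sox2 sort. In the 12 culture libraries it ranged from 0 to 1.04 TPM, with a median of 0.295 TPM. The Sox2 sort did not overlap with the Atoh1 sort, and the Lgr5 sort did not overlap with any culture group. Elavl3 (HuC), at chr9:22015005-22052023, never reached 1 TPM. It had 0.224 and 0.076 TPM in the Atoh1 sort, 0.112 and 0.0841 TPM in the Lgr5 sort and 0.235 and 0.696 TPM in the Sox2 sort, with at most 0.103 TPM in cultures. That culture value, from replicate 2 of sorted LCP D0, was above replicate 2 of the Atoh1 sort and of the Lgr5 sort. Elavl3 failed the filter of at least 1 TPM in at least 2 libraries, so 9 of the 10 genes entered the tests. Of its exon bases, 3.72% overlap with Gm49318 on the same strand.

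The axonal microtubule genes, like Elavl4, were highest in the Sox2 sort among the native sorts. For each of these genes the Atoh1 sort was above the Lgr5 sort in replicate 1 and below it in replicate 2. Stmn2, at chr3:8509360-8561606, had 20.7 and 1.79 TPM in the Atoh1 sort, 7.26 and 2.58 TPM in the Lgr5 sort and 41.1 and 50.9 TPM in the Sox2 sort. In cultures it had 0.027 and 0.0132 TPM in sorted LCP D10 and 2.84 and 0.00618 TPM in sorted LCP D0. In unsorted cultures it had 3.47 and 1.5 TPM at D0, 1.06 and 0.0211 TPM at D2 and 0.194 and 0.024 TPM at D4, and it was listed at 0 in both D10 libraries. Stmn2 thus went the other way from Nefl over time, with log2 differences of -1.60 (SE 0.85) for D4 minus D0 and -1.74 (SE 0.85) for D10 minus D0, given as a description. Tubb3, at chr8:123411424-123422015, had 6.97 and 0.611 TPM in the Atoh1 sort, 0.915 and 1.86 TPM in the Lgr5 sort and 11.6 and 13.98 TPM in the Sox2 sort. Its culture values lay between 0 and 1.16 TPM in 11 of the 12 libraries. The exception was replicate 1 of LCP D10 with 7.31 TPM, against 0.103 TPM in replicate 2 of that group. In the same replicate 1 library the keratin gene Krt17 had 118 TPM, against 0.4 TPM in replicate 2, and the part of this library's makeup in the Tubb3 value was not tested. Krt17 was named after its values were seen.

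In the native comparisons, which also chose the genes, the Lgr5 minus Sox2 log2 differences were -3.10 (SE 0.85) for Stmn2, -2.78 (SE 0.40) for Nefh, -2.65 (SE 0.58) for Elavl4, -2.55 (SE 0.82) for Tubb3 and -2.34 (SE 0.44) for Ina. They were -0.81 for Nefl, -0.76 for Nefm, -0.85 for Snap25 and -0.60 for Lmo3. Of 10 glial genes in the fit, 5 passed as lower in the Lgr5 sort and none as higher, where 0.557% of all genes passed in either direction. Foxd3 among them entered the fit only through the Sox2 libraries, where it is high, at 2.53 and 1.83 TPM. The count is therefore a description. Summed over the myelin genes Mbp and Pmp22, a pair picked after their values were seen, the level was 7.24 to 27.2 TPM in the Lgr5 sort, against 266 to 652 TPM in the Sox2 sort. On the log2 scale Pmp22 was lower in the Lgr5 sort, at -5.09 (SE 0.57, adjusted p = 0.00136), as was Mbp at -4.49 (SE 0.64, adjusted p = 0.00731), by limma with Benjamini-Hochberg adjustment. For Foxd3, a transcription factor gene of the neural crest, the difference of -1.50 (SE 0.19) is given with no test. Other glial genes did not pass: the differences were -0.22 for Sox10, -0.23 for Erbb3, -0.30 for Fabp7 and -0.26 for Ngfr, and S100b had the other sign at 1.09 (SE 0.99). The glutamate transporter genes of neurons were lower too, Slc17a7 at -2.10 (SE 0.26, adjusted p = 0.00324) and Slc17a6 at -1.45 (SE 0.24, adjusted p = 0.0227), the 2 of 27 SNARE and vesicle genes that passed, where 0.557% of all 20463 tested genes passed in either direction. Leaving out replicate 1 or 2 of the Lgr5 sort or replicate 2 of the Sox2 sort gave a count of 1. The part of glial and neuronal material in the Sox2 values was not tested.

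The Atoh1 sort differed within itself. Its replicate 1 had 16.8 TPM of Elavl4, 20.7 TPM of Stmn2 and 6.97 TPM of Tubb3, while replicate 2 had 2.76 TPM of Elavl4, 1.79 TPM of Stmn2 and 0.611 TPM of Tubb3. Gap43, a growth cone gene that was most like Elavl4 across groups, had 10.5 TPM in replicate 1 and 2.11 TPM in replicate 2. The sum of Mbp and Pmp22 was 19.1 to 19.8 TPM in this sort, within the range of the Lgr5 sort. Markers of neuron identity gave no uniform picture. Among further neuron markers, Neurog1, Neurod4 and Scn10a were listed at 0 in both Atoh1 libraries and in both Sox2 libraries. A set of 15 such markers, without Uchl1, Isl1 and Calb2, which hair or supporting cells also express, summed to 199 to 206 TPM in the Atoh1 sort, 99.3 to 154 TPM in the Lgr5 sort and 156 to 203 TPM in the Sox2 sort. The set still holds Chgb and Chga, which is also known in hair cells, so the sum does not measure neuronal RNA alone. Sorted LCP D0 minus the Lgr5 sort was -5.78 for Chga and -4.15 for Chgb on the log2 scale. Their part in the sums was not tested.

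**Figure D2:**
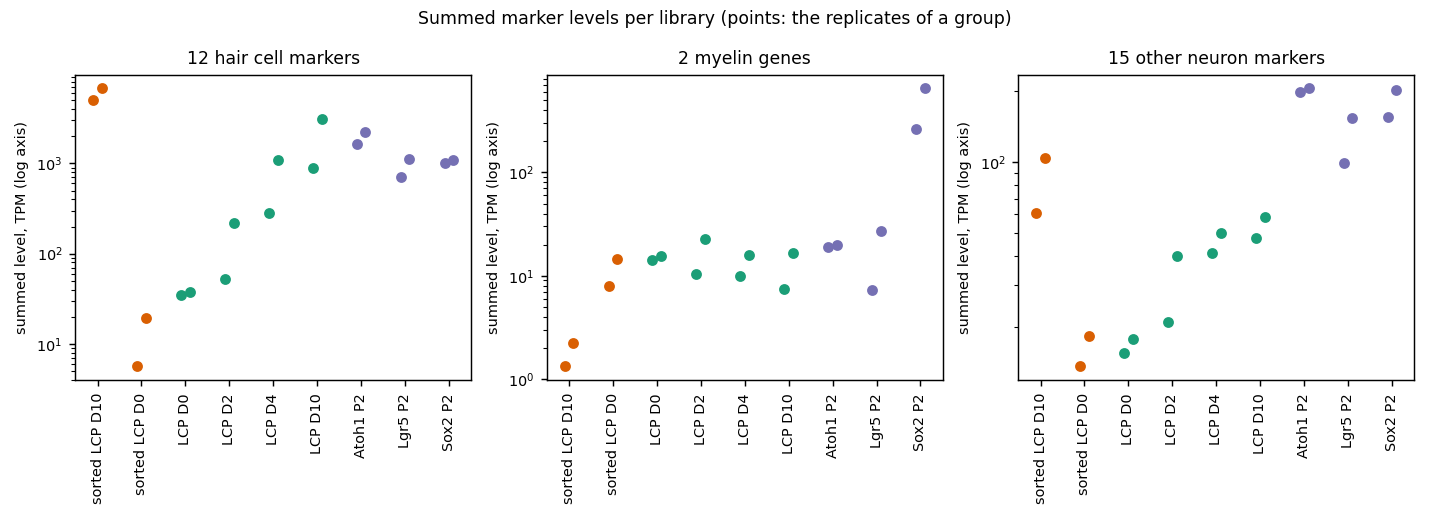
Summed TPM per library, on log axes, of 12 hair cell markers, 2 myelin genes and 15 further neuron markers; each point is 1 library. Hair cell markers are high in sorted LCP D10 and the native sorts, and also in unsorted cultures, at 884 to 3142 TPM in LCP D10 and 284 to 1086 TPM in LCP D4. The myelin sum of 266 to 652 TPM in the Sox2 sort is above all other libraries.

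Snap25 was high in day 10 cultures, as were Nefl, Nefm and Ina. It encodes a plasma membrane SNARE protein and lies at chr2:136713453-136782428. It had 46.1 and 46.2 TPM in sorted LCP D10 and 3.41 and 0.946 TPM in sorted LCP D0. In unsorted cultures it had 5.64 and 5.37 TPM at D0, 1.25 and 7.49 TPM at D2, 8.87 and 24.3 TPM at D4, and 18.2 and 26 TPM at D10. The Atoh1 sort had 33.2 and 32.5 TPM, the Lgr5 sort 9.1 and 14.8 TPM and the Sox2 sort 21.1 and 22.2 TPM. Sorted LCP D10 was the highest group, and its libraries did not overlap with those of the Atoh1 sort, the next in order. Unlike Nefl and Nefm, Snap25 was above 5 TPM already in both LCP D0 libraries. The log2 difference of sorted LCP D10 minus sorted LCP D0 was 4.01 (SE 0.60), given as a description.

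Lmo3 separated native cells from cultures. It encodes a LIM-only protein, which has no DNA-binding domain and acts through partner factors, and lies at chr6:138362918-138581968. It had 18.8 and 26.7 TPM in the Atoh1 sort, 13.98 and 28.6 TPM in the Lgr5 sort and 30.1 and 31.9 TPM in the Sox2 sort. In the 12 culture libraries it ranged from 0.00572 to 0.928 TPM, with a median of 0.2 TPM. The lowest native library was thus far above the highest culture library, while the Atoh1 and Lgr5 sorts overlapped. Its close relative Lmo1 did not share this pattern: it had 146 and 161 TPM in sorted LCP D10, 11.2 and 6.86 TPM in sorted LCP D0, and 97.8 to 261 TPM in native libraries. Of 5 LIM-only and partner genes, Lmo1 alone passed in sorted LCP D10 against sorted LCP D0, at 3.98 (SE 0.65, adjusted p = 0.00124, limma), a share near that of all genes, of which 24% passed. A second one fell without replicate 2 of sorted LCP D0.

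The first test that the choice of genes did not use set sorted LCP D10 against the Atoh1 sort, although both groups entered other comparisons that it used. Nefl, Nefm, Ina and Snap25 did not pass the threshold. Of the 9 genes, 3 were lower in the cultured cells, but Lmo3 and Elavl4 among them entered the fit only through the native libraries, where they are high, so this count supports nothing. Across all 20463 tested genes 11.8% passed in either direction, 922 higher and 1502 lower. After median-of-ratios scaling, which moved the median of all genes by 0.109, the counts were 1163 higher and 1231 lower. The log2 difference was 0.15 for Nefl (SE 1.09, adjusted p = 0.969), 0.12 for Nefm (SE 0.84, adjusted p = 0.966), 0.48 for Snap25 (SE 0.60, adjusted p = 0.665) and -0.68 for Ina (SE 0.44, adjusted p = 0.365), all from limma with Benjamini-Hochberg adjustment. With these errors, the fit could not show differences in Nefl and Nefm as large as their SE.

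For Lmo3 and Elavl4 the differences of sorted LCP D10 minus the Atoh1 sort are therefore a description with no test, at -4.36 (SE 0.36) for Lmo3 and -3.00 (SE 0.58) for Elavl4. Stmn2 reached 1 TPM in cultures too, though only in day 0 and day 2 libraries and not in sorted LCP D10. It was lower in sorted LCP D10 at -2.93 (SE 0.85, adjusted p = 0.0447, limma). Its levels in the Atoh1 sort also entered comparisons that chose it, and this p-value shares that limit. Each pair of same-numbered libraries had the same direction for all 3 genes. The Stmn2 call rested on single libraries: it was -1.45 with an adjusted p of 0.326 without replicate 1 of the Atoh1 sort, and the adjusted p was 0.149 and 0.175 without replicate 1 or replicate 2 of sorted LCP D10. It was 0.0732 with no filter on low values. It did not pass when only these 2 groups entered the fit. Tubb3 (-1.74, SE 0.82, adjusted p = 0.202) and Nefh (-0.28, SE 0.40, adjusted p = 0.719) did not pass.

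Sorted LCP D0 was set against the Lgr5 sort, and both groups also entered comparisons that chose the genes. Here 4 of the 9 genes, Lmo3 among them, were lower in the cultured cells and none was higher, where 11% of all tested genes passed in either direction. Lmo3 entered the fit only through the native libraries. Changes that start at sorted LCP D0 also chose the genes, so this count supports nothing, and the p-values below share this limit. The log2 difference was -5.51 for Nefm (SE 0.84, adjusted p = 0.00141), -5.56 for Nefl (SE 1.09, adjusted p = 0.00603) and -2.11 for Snap25 (SE 0.60, adjusted p = 0.0431) in limma. As before, Lmo3 at -4.18 (SE 0.36) and Elavl4 at -1.82 (SE 0.58) are given with no test. The Nefl value had an adjusted p of 0.0679 without replicate 2 of the Lgr5 sort. The Snap25 value had adjusted p-values of 0.0819 and 0.236 without replicate 1 or 2 of the Lgr5 sort, 0.271 without replicate 2 of sorted LCP D0 and 0.0791 with no filter. Ina (-1.40, SE 0.44, adjusted p = 0.0667) missed the threshold and passed with the replicate number as a block, at 0.0473, and with a pseudocount of 0.1, at 0.0405. Stmn2 (-1.47, SE 0.85), Nefh (-0.33, SE 0.40) and Tubb3 (-0.23, SE 0.82) did not pass. When only these groups entered the fit, no gene of all those tested passed, the 9 included, which is not a result about the 9. Hair cell markers differed as well: 11 of 12 were lower in sorted LCP D0 than in the Lgr5 sort, with Lhfpl5, a hair bundle gene, at -7.66 (SE 0.88, adjusted p = 0.000236). The part of hair cell RNA in the Lgr5 values was not tested.

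**Figure D3:**
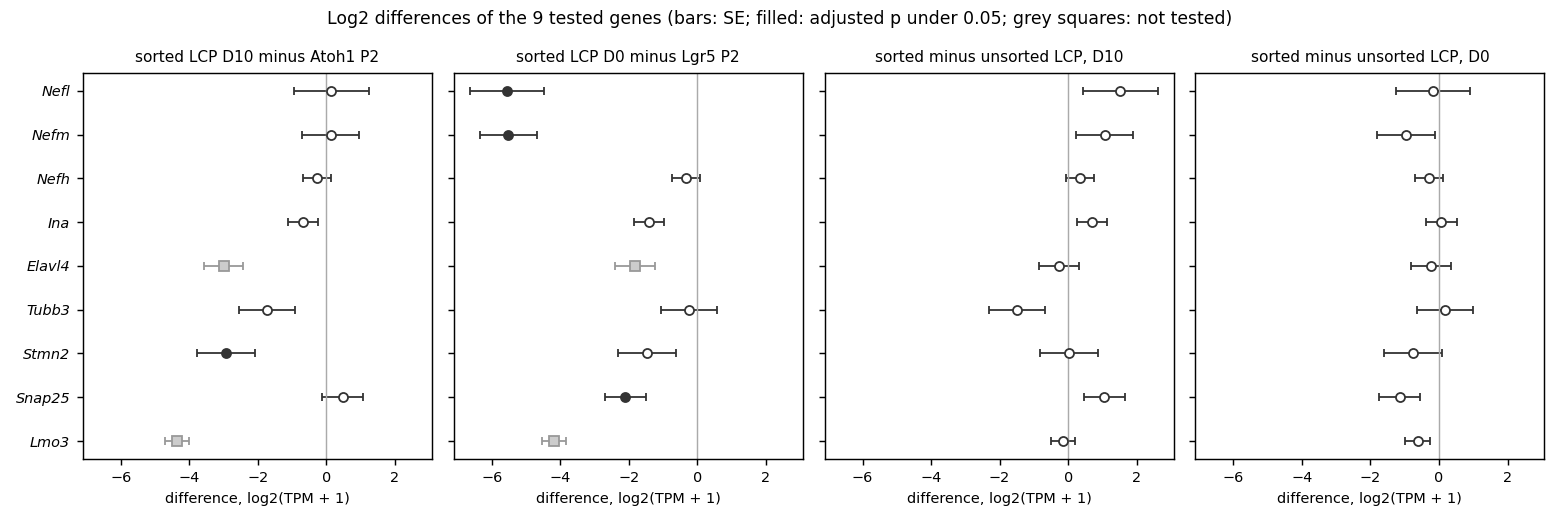
Log2 differences of the 9 tested genes in 4 comparisons, with SE as bars and filled points where the adjusted p was under 0.05; grey squares are Lmo3 and Elavl4 against native sorts, given with no test. The groups set against native sorts, and those sorts, also entered comparisons that chose the genes, a limit that the filled points share. Against the Atoh1 sort, Nefl and Nefm lie near 0 while Lmo3, Elavl4 and Stmn2 lie at -4.36 to -2.93; no point is filled in the comparisons of sorted with unsorted cultures.

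Between sorted and unsorted cultures none of the 9 genes passed, which at the shares of all genes given here is not a result about these genes. For sorted minus unsorted at D0, 0 of 9 passed in limma (0.0782% of all genes), with log2 differences from -1.15 (SE 0.60) for Snap25 to 0.17 (SE 0.82) for Tubb3. Over all genes 16 passed, 1948 had an unadjusted p under 0.05, and 238 passed without replicate 1 of sorted LCP D0. At D10, 0 of 9 passed (6.22% of all genes), with values from -1.50 (SE 0.82) for Tubb3 to 1.53 (SE 1.09) for Nefl. Snap25 did not overlap at D10, with 46.1 and 46.2 TPM in sorted and 18.2 and 26 TPM in unsorted cultures, a difference of 1.05 (SE 0.60, adjusted p = 0.309, limma). None of the 9 had an unadjusted p under 0.05 in either comparison. Without replicate 2 of LCP D10, Tubb3 was lower in sorted cells at -2.96 with an adjusted p of 0.0254, a value that then rests on the library with 7.31 TPM. The change from D0 to D10 in sorted minus that in unsorted cultures is built from changes that chose the genes and is given with no test, where 0.205% of all genes passed. Its largest value among the 9 was 2.20 (SE 0.85), for Snap25.

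Genes of the same pathways, in lists not chosen for how these genes moved but drawn up with earlier results of these data known, gave calls in both directions. Between sorted LCP D10 and sorted LCP D0, where 24% of all genes passed, 6 of 11 further neuronal RNA-binding genes rose and none fell. Srrm3, a neural splicing regulator, had 62.9 and 48.5 TPM in sorted LCP D10, against 0.414 and 0.181 TPM in sorted LCP D0, a difference of 5.44 (SE 0.49, adjusted p = 5.61e-05, limma). Rbfox3, the gene of the neuronal nuclear antigen NeuN, rose by 4.42 (SE 0.83, adjusted p = 0.00277), with 22.4 and 18.8 TPM in sorted LCP D10 and 0.0109 and 0 TPM in sorted LCP D0. Elavl1, the ubiquitous member of the Elavl family, was the most abundant that did not pass (-0.84, SE 0.36, adjusted p = 0.117). In unsorted cultures only Srrm3 passed at D10 against D0 (3.10, SE 0.49, adjusted p = 0.00308), where 7.39% of all genes passed, 624 higher and 888 lower, or 781 higher and 733 lower after median-of-ratios scaling. Without replicate 1 of LCP D10, 2 genes passed.

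Axon, microtubule and growth genes moved in both directions between sorted LCP D10 and sorted LCP D0, where 24% of all genes passed. Of 19 tested, 4 rose and 5 fell in sorted LCP D10 against sorted LCP D0, and 2 rose and 3 fell without replicate 1 of sorted LCP D10. Stmn3, a relative of Stmn2, had 77.7 and 58.7 TPM in sorted LCP D10, against 0.283 and 0.244 TPM in sorted LCP D0 (5.76, SE 0.86, adjusted p = 0.000754). Mapt, the gene of tau, rose by 4.44 (SE 1.13, adjusted p = 0.014). Tuba1a was the most abundant that did not pass (0.59, SE 0.40, adjusted p = 0.32). Against the Atoh1 sort, 7 of the 19 were lower and 1 was higher in sorted LCP D10, where 11.8% of all genes passed in either direction. Mapt was the higher one (4.53, SE 1.13, adjusted p = 0.0232), with 93.3 and 128 TPM in sorted LCP D10 against 10.7 and 0.953 TPM in the Atoh1 sort. Dpysl3, a growth cone protein gene, was lower (-4.13, SE 0.62, adjusted p = 0.0016), with 11.4 and 7.98 TPM in sorted LCP D10 against 184 TPM in both Atoh1 libraries. The count of 8 fell to between 2 and 4 when any 1 of the 4 libraries was left out.

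Among SNARE and synaptic vesicle genes, partners of Snap25, more rose than fell. Of 27 tested, 9 rose and 1 fell in sorted LCP D10 against sorted LCP D0, where 24% of all genes passed, 2727 higher and 2184 lower. The calcium sensor gene Syt2 had 33.3 and 22.7 TPM in sorted LCP D10, against 0.08 and 0 TPM in sorted LCP D0 (4.78, SE 0.69, adjusted p = 0.000622). The vesicle protein gene Syp, for synaptophysin, rose by 4.44 (SE 0.65, adjusted p = 0.000666), and Vamp2, a vesicle SNARE, did not pass (1.29, SE 0.48, adjusted p = 0.0734). Against the Atoh1 sort, 4 of 27 were lower and 1 was higher in sorted LCP D10, not far from the 11.8% of all genes. Syt1, the main neuronal calcium sensor, had 0.74 and 0.215 TPM in sorted LCP D10, against 26 and 32.8 TPM in the Atoh1 sort (-4.38, SE 0.48, adjusted p = 0.000209). Stx1a, the plasma membrane SNARE that pairs with SNAP-25, had 1.42 and 1.5 TPM in sorted LCP D10, against 43.1 and 43.7 TPM in the Atoh1 sort (-4.17, SE 0.37, adjusted p = 4.58e-05). Syt1 was low in all cultures and Snap25 was not, so these SNARE and vesicle genes did not share 1 pattern.

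Other intermediate filament genes gave few calls in sorted LCP D10 against sorted LCP D0, where 24% of all genes passed. Of 13 tested, none rose and 2 fell in sorted LCP D10 against sorted LCP D0, and the count was 1 without replicate 1 or 2 of sorted LCP D0 or without replicate 2 of sorted LCP D10. Vim, for vimentin, had 23 and 20.5 TPM in sorted LCP D10, against 239 and 138 TPM in sorted LCP D0 (-3.00, SE 0.55, adjusted p = 0.00259), and Lmnb2, for lamin B, had a difference of -1.08 (SE 0.33, adjusted p = 0.0354). Mesenchyme markers, from cells that also express Vim, summed to 47.5 to 62.4 TPM in sorted LCP D10, against 660.3 to 1619 TPM in sorted LCP D0, with 3 of 7 tested lower, and their part in the Vim value was not tested. This sum does not stand for its list. In sorted LCP D0 it was mostly Dcn (895 and 421 TPM) and Lum (718 and 238 TPM). The collagen gene Col1a1 had 0.977 and 0.236 TPM there, and Col3a1 was listed at 0 in both libraries. Peripherin (Prph), the intermediate filament of peripheral neurons, was listed at 0 in both sorted LCP D10 libraries and had 1.64 and 3.15 TPM in the Sox2 sort. Prph was named after its values were seen. Krt8 was the most abundant that did not pass (-1.16, SE 0.82, adjusted p = 0.337). In unsorted cultures at D10 against D0, Lmnb2 alone of the 13 passed (-1.64, SE 0.33, adjusted p = 0.012, limma), where 7.39% of all genes passed. The list median was 0.43, against -0.08 over all genes. Between 0 and 2 of the 13 passed when 1 library was left out. The keratin gene Krt18 had 2673 and 864 TPM at D10, against 331 and 249 TPM at D0, and did not pass (2.40, SE 0.74, adjusted p = 0.0755, limma). Krt19 had 81.4 and 30.02 TPM at D10, against 12.8 and 17.4 TPM at D0 (1.67, SE 0.62, adjusted p = 0.143, limma). Both keratin genes were named after their values were seen.

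Of 11 further neuron markers that entered the test, 4 rose and none fell in sorted LCP D10 against sorted LCP D0, where 24% of all genes passed. They included Calb2, for calretinin (7.31, SE 0.87, adjusted p = 0.00023), and Chga, for chromogranin A (4.65, SE 0.64, adjusted p = 0.000487), both also known in hair cells. Uchl1, the most abundant, did not pass (-2.46, SE 0.93, adjusted p = 0.075). Hair cell markers rose alongside: 11 of 12 passed, and in the unsorted cultures 10 of 12 passed at D4 against D0 (3.39% of all genes) and 10 of 12 at D10 against D0. Cabp2, a calcium-binding protein gene of hair cells, differed by 11.85 in sorted cultures (SE 1.02, adjusted p = 5.09e-05). The D4 count was 2, 3 and 2 without replicate 1 of LCP D0, replicate 2 of LCP D0 or replicate 2 of LCP D4. Of 9 genes of the REST repressor complex, 1 fell in sorted LCP D10 against sorted LCP D0, where 24% of all genes passed (Hdac1, -1.14, SE 0.24, adjusted p = 0.00532), and none without replicate 1 of sorted LCP D10. In unsorted cultures 2 of the 9 fell at D10 against D0, where 7.39% of all genes passed: the corepressor gene Rcor2 (-3.02, SE 0.45, adjusted p = 0.00217) and Hdac1 (-1.21, SE 0.24, adjusted p = 0.0109). Without replicate 1 of LCP D0 or replicate 2 of LCP D10, 1 of them passed. Rest itself had 8.18 and 6.62 TPM in sorted LCP D10 and 8.07 and 6.96 TPM in sorted LCP D0, and was named after its values were seen.

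**Figure D4:**
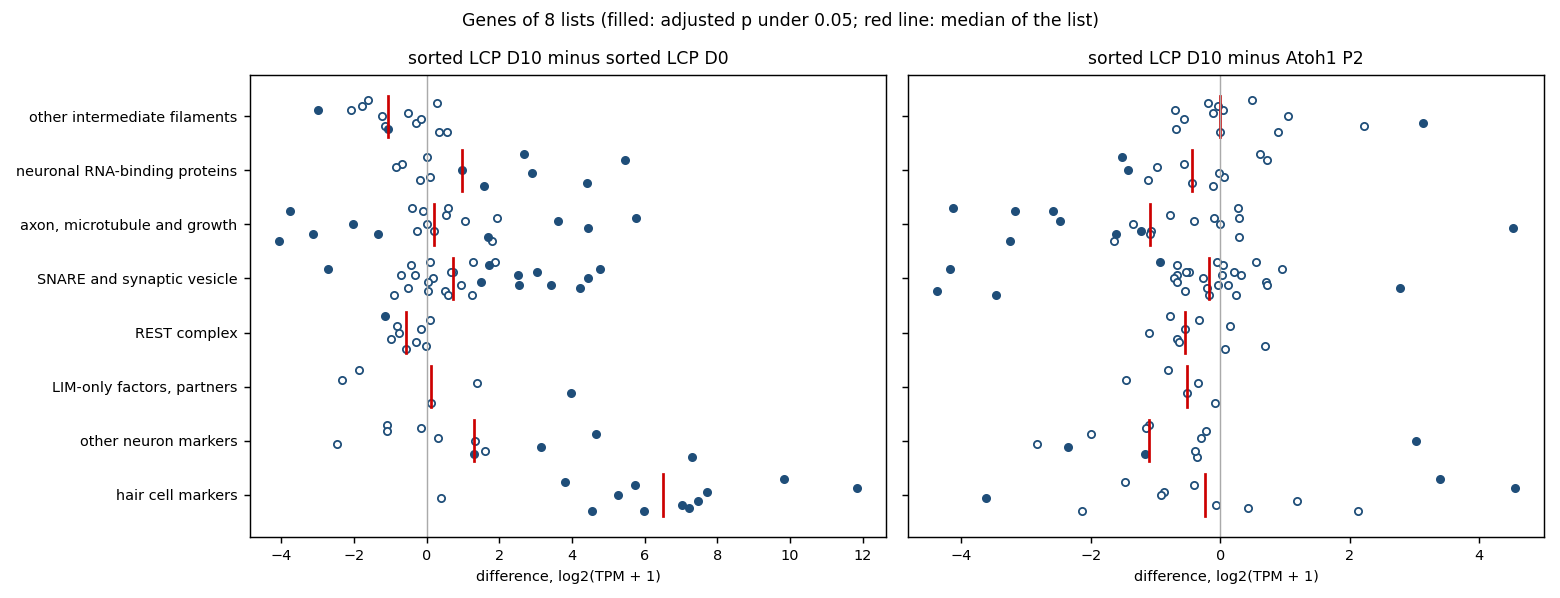
Log2 differences of single genes in 8 lists for sorted LCP D10 minus sorted LCP D0 and minus the Atoh1 sort, with the median of each list as a red line and filled points where the adjusted p was under 0.05. Hair cell markers had a median of 6.50 over sorted LCP D0, against 0.02 over all genes. Smaller medians were 1.305 for other neuron markers, 0.97 for neuronal RNA-binding genes and 0.71 for SNARE and vesicle genes. Axon, microtubule and growth genes had 0.19, and LIM-only and partner genes 0.12. The median was -0.57 for the REST complex and -1.08 for other intermediate filaments.

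Across the 9 group means, Nefl, Nefm, Ina and Snap25 were most alike on one side and the other genes on the other, with Ina in between. Pearson's r of log2(TPM + 1) was 0.99 between Nefl and Nefm, 0.90 between Nefl and Ina and 0.94 between Nefl and Snap25. It was 0.98 between Elavl4 and Stmn2, 0.95 between Elavl3 and Elavl4, 0.94 between Elavl4 and Lmo3 and 0.90 between Elavl4 and Tubb3. Nefh was closer to this second set, with 0.92 for Elavl3 and 0.60 for Lmo3, than to Nefl (0.39) or Snap25 (0.29). With Ina, however, its r was 0.65, above that with Lmo3. Outside the Sox2 sort every group mean of Nefh was below 1 TPM, so 1 group weighs heavily in its values. Between the sets r was 0.47 for Nefl with Elavl4 and 0.29 for Elavl4 with Snap25. For Ina it was 0.73 with Elavl3, 0.71 with Elavl4, 0.68 with Lmo3 and 0.68 with Tubb3. These are descriptions over 9 groups that share libraries and treatments, and the genes were chosen for such patterns.

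Among 9709 genes other than predicted and mitochondrial ones with at least 10 TPM in a group mean, those most like Nefl were Mogat1, Kncn and Chrna10 (r = 0.996, 0.996 and 0.994), of which Kncn and Chrna10 are known hair cell genes. Those most like Nefm were Lrrc10b (0.996), Acbd7 (0.99) and Nefl (0.99). Gipc3, a gene needed for hearing, Rnls and Srgap1 were most like Ina (0.97, 0.96 and 0.96). For Snap25 they were Zfp385a (0.99), Pak3 (0.99) and Spag6l (0.99). The genes most like Nefh included Acad8 (0.93) and Mlip (0.93), while for Tubb3 they were the myelin gene Pmp22 (0.95), Col23a1 (0.94) and Gypc (0.93). Elavl4 had Gap43 (0.99), Gypc (0.98) and Capn3 (0.98), and Stmn2 had Nkain4 (0.98), Elavl4 (0.98) and Aatk (0.98). Elavl3, below 1 TPM throughout, had Mlip (0.99) and Lama4 (0.99). Lmo3 had Lrrtm4 (0.995), Fabp7 (0.99) and Necab2 (0.99). Fabp7, a fatty acid binding protein gene of glia and of supporting cells, had 80.7 to 432 TPM in native libraries and at most 1.74 TPM in cultures, the same split as Lmo3.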

How the data were processed

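RNA was measured in 18 mouse libraries made, per the labels' protocols, from 2.5 ng of RNA with SMARTer V4 and ThruPLEX kits, which do not mark strand, and read from a single end for 75 bp. TPM per gene was deposited for each library by the authors. STAR, Salmon, FastQC, DESeq2 and the build mm10 are named per the submitters' processing notes, without roles, versions or annotation. TPM keeps no depth, so no counting intervals are given, and a rise of abundant genes lowers the rest.

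Values were changed to log2(TPM + 1), which understates changes of low genes. Genes had to reach 1 TPM in 2 libraries or more, and the 20463 that did were fitted with limma 3.58.1 (R 4.3.3), a mean per group over all 18 libraries, moderated with a trend, and Benjamini-Hochberg adjustment per comparison over all of them at a threshold of 0.05. Of 10 comparisons, 5 chose the genes and are given without a test for them, as is the difference of changes built from 2 of these. With 2 against 2 libraries an exact permutation test cannot go below p = 0.333, so none was run. The script was tested on simulated data. Descriptions used Python 3.11.15 and pandas 2.3.3, and gene positions are from GENCODE M21.

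The 10 genes and the 13 other lists (166 genes) were chosen with earlier results of these data known. Named are all 10 genes. For each, the 3 genes with the highest Pearson's r over group means follow. Each list and comparison adds the 2 genes that passed by the widest margin in log2 difference, and the top gene by abundance among those that missed. Exceptions are said in place. Some results on genes of these lists are not reported here. Lists of mesenchyme, immune, endothelial and erythroid, supporting cell and cell cycle markers served as checks. Their summed levels in sorted LCP D10 were 47.5 to 62.4 TPM, 1.77 to 1.98 TPM, 6431 to 7453 TPM and 3.06 to 5.62 TPM, and in the Atoh1 sort 148 to 265 TPM, 154 to 202 TPM, 1108 to 1786 TPM and 6.79 to 18.8 TPM. The mesenchyme sum in sorted LCP D10 is mostly Dcn and Lum and does not stand for its list. The supporting cell sum does not stand for its list either. Of its 11 genes, 4 were lower and 1 was higher in sorted LCP D10 than in the Atoh1 sort, where 11.8% of all genes passed. The median log2 difference of that list was -2.15.

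Same-numbered replicates share a labelled sequencing date in 7 of 10 comparisons, so the numbers mark a batch there. Their replicate differences correlated between -0.0187 and 0.411 across genes. In 7 libraries the labelled extraction date is later than the sequencing date. Alternatives were a pseudocount of 0.1, no filter, median-of-ratios scaling, the replicate block, a fit of only the groups compared, and leaving out each replicate.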

Additional observations from a re-analysis of the deposited data

Results flagged for a closer look

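Nefh moved in opposite directions in the 2 kinds of culture. The change from D0 to D10 on the log2 scale was 0.118 and 0.735 by replicate number in sorted cultures, against -0.289 and -0.117 in unsorted cultures. The difference between these changes was 0.63 (SE 0.57) and was not tested, since these changes entered the choice of the genes. All of these libraries held less than 1 TPM of Nefh.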

How the results depend on the processing

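The count of genes past the threshold moved with the processing. With a pseudocount of 0.1 it was 105 (against 168) for Atoh1 against the Lgr5 and Sox2 sorts, 30 (against 114) for Lgr5 against Sox2, 804 (against 1273) for sorted against unsorted LCP D10 and 27 (against 42) for the difference of changes. With no filter these were 352, 232, 2164 and 144, and 35 (against 16) for sorted against unsorted LCP D0. With only the groups compared in the fit, counts were 10, 0, 0 (D4 against D0), 0 (D10 against D0), 2032 (sorted D10 against sorted D0), 0 and 0 (sorted against unsorted, D0 and D10), 963 (sorted D10 against Atoh1) and 0 (sorted D0 against Lgr5). Of the 9 neuronal genes in the fit, counted with Lmo3 and Elavl4, 1 was then lower than in Atoh1 and 0 than in Lgr5.

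The replicate block used the replicate number and not the date. It gave 25 genes for sorted against unsorted LCP D0, where the replicate 1 libraries differ in labelled sequencing date. At D10, where same-numbered replicates share that date, it gave 2434. In sorted LCP D0 against Lgr5 the block gave 6 of 9 neuronal genes, counted with Lmo3 and Elavl4. It changed no other call on these genes.

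Leaving out 1 library gave 73 to 194 genes for Atoh1 against the Lgr5 and Sox2 sorts (lowest without Atoh1 replicate 2), 45 to 285 for Lgr5 against Sox2 (Lgr5 replicate 2, Sox2 replicate 1), 183 to 629 for D4 against D0 (lowest without D4 replicate 2), 479 to 1392 for D10 against D0 (D0 replicate 1), 2440 to 4101 for sorted D10 against sorted D0 (sorted D10 replicate 1), 8 to 238 for sorted against unsorted D0 (D0 replicate 2, sorted D0 replicate 1), 56 to 2461 at D10 (D10 replicate 1, D10 replicate 2), 941 to 1226 for sorted D10 against Atoh1 (lowest without sorted D10 replicate 2), 1113 to 2154 for sorted D0 against Lgr5 (Lgr5 replicate 2) and 21 to 352 for the difference of changes (D10 replicate 1, D10 replicate 2). Neuronal genes past the threshold were 0 to 1 at D10 sorted against unsorted, 2 to 3 against Atoh1 and 2 to 4 against Lgr5 (2 without Lgr5 replicate 2).

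Differences that did not pass changed sign when 1 library was left out. Their ranges in sorted against unsorted D0 were -0.39 to 0.020 for Nefl, -0.018 to 0.16 for Ina, -0.75 to 0.29 for Elavl4 and -1.73 to 0.20 for Stmn2. At D10 they were -0.55 to 0.029 for Elavl4 and -0.37 to 0.073 for Lmo3. In sorted D10 against Atoh1 they were -0.41 to 0.71 for Nefl, -0.052 to 0.29 for Nefm and -0.58 to 0.028 for Nefh. Tubb3 ranged from -0.52 to 0.057 in sorted D0 against Lgr5, and in the difference of changes Elavl4 ranged from -0.55 to 0.48 and Stmn2 from -0.17 to 1.76. With a pseudocount of 0.1 Elavl4 was 0.16 in the last. The cause was not tested. TPM gives no depth, so values below 1 TPM have no known counting error.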
